A study of Danio rerio with 12 samples.

Results

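*rhcga* encodes an Rh family C glycoprotein of the zebrafish (*Danio rerio*), a membrane protein through which ammonia leaves epithelial cells. It is represented on the array by 1 target of 37157, the RefSeq transcript that the platform annotation pairs with this symbol, and by 12 of 385000 probes, which lie at positions 14 to 1599 nt of the transcript. The gene was selected on its log2 levels in these same 4 groups, which were already known, so its levels and differences are given as a description with standard errors and without p values. The tested groups were wild-type AB embryos kept in 100 ppb Pb (lead acetate) from about 1 hpf (hours postfertilization) through 120 hpf or through 72 hpf. Their controls were kept without Pb (0 ppb) through 120 hpf or through 72 hpf. Each of the 4 groups has 3 arrays, and each array carries the RNA of 1 pool of about 50 whole embryos or larvae, which the study counts as 1 biological replicate. No transgene or mutation is carried by any group, and a pool mixes all tissues.

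Fish lose most of their waste nitrogen as ammonia, which is made when amino acids are broken down. In zebrafish larvae, before the gills take over, much of it leaves through the skin, where ionocytes sit among the keratinocytes. Rh proteins conduct ammonia across the membranes of these cells, and one kind of ionocyte, rich in the H+ pump (V-type H+ ATPase), couples this route to acid secretion and sodium uptake. Rhcg proteins are also known from the mammalian kidney, where they carry ammonia in the collecting duct.

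Signal of *rhcga* was far higher in larvae of 120 hpf than in those of 72 hpf, with and without Pb, and all 12 probes showed this. The log2 intensity, the mean over the 12 probes after quantile normalization, was 11.82, 13.18, and 11.86 in the 3 Pb arrays of 120 hpf. It was 11.74, 12.99, and 12.11 in the 3 control arrays of 120 hpf. At 72 hpf it was 9.24, 9.04, and 9.59 in the Pb arrays and 7.14, 10.32, and 9.62 in the control arrays. The 6 arrays of 120 hpf thus lay above the 6 arrays of 72 hpf with no overlap. In whole-larva RNA, more cells that express a gene and more RNA per cell cannot be told apart.

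**Figure D1:**
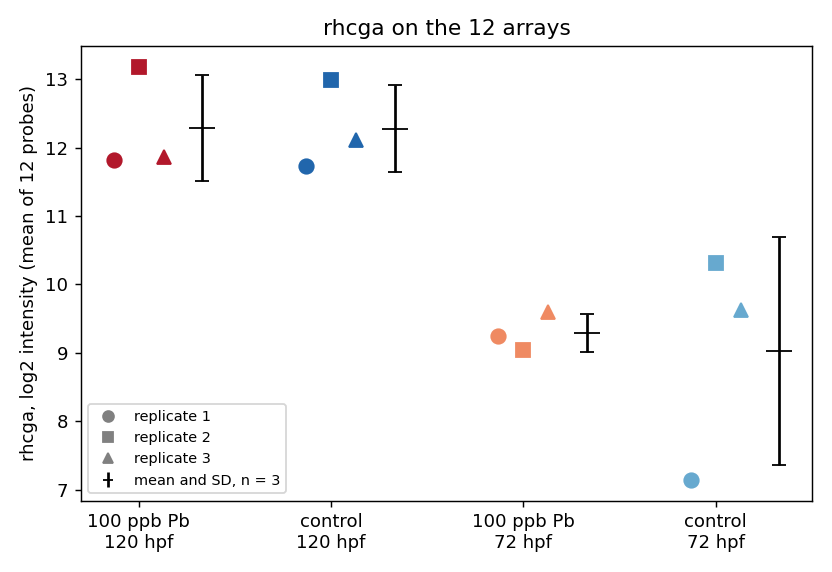
Log2 intensity of *rhcga* (mean of 12 probes) on each of the 12 arrays, by group on the horizontal axis, with marker shape for the replicate number and black bars for the mean and SD of 3 arrays. The arrays of 120 hpf lie between 11.74 and 13.18 and those of 72 hpf between 7.14 and 10.32, where replicate 1 of the control group lies apart from the other 5.

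In order of level, the Pb group of 120 hpf stood at 12.29 ± 0.775 and the control group of 120 hpf at 12.28 ± 0.642, followed by the Pb group of 72 hpf at 9.29 ± 0.279 and the control group of 72 hpf at 9.03 ± 1.67 (log2 intensity, SD, n = 3 arrays each). These means correspond to linear intensities of 5003, 4967, 626, and 522 in the same order. The first pair of neighbors in this order overlapped, and so did the last pair. Only the step between the control group of 120 hpf and the Pb group of 72 hpf was free of overlap.

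With Pb, *rhcga* was 7.99-fold higher at 120 hpf than at 72 hpf, a difference of 3.00 on the log2 scale (standard error 0.661, n = 3 arrays each). In controls it was 9.51-fold higher at 120 hpf than at 72 hpf, a difference of 3.25 (standard error 0.661). Both standard errors are the same because the spread is pooled over all 4 groups. With only the 2 groups compared fitted, the standard error was smaller than 0.661 with Pb and larger in controls. The lowest array of 120 hpf exceeded the highest of 72 hpf by 2.23 with Pb and by 1.42 in controls. Over all 37157 targets, the 3 arrays of 120 hpf lay above the 3 arrays of 72 hpf for 7.97% with Pb and for 15.1% in controls, so the lack of overlap alone is common. The size of the difference was less common. It held rank 78 of 37157 targets from the highest with Pb and rank 96 in controls, and among the 2663 targets with a gene symbol it held rank 6 with Pb and rank 7 in controls. The gene was selected on these same levels, so the ranks follow in part from the choice. The control ranks also include a low array of 72 hpf that is described below.

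**Figure D2:**
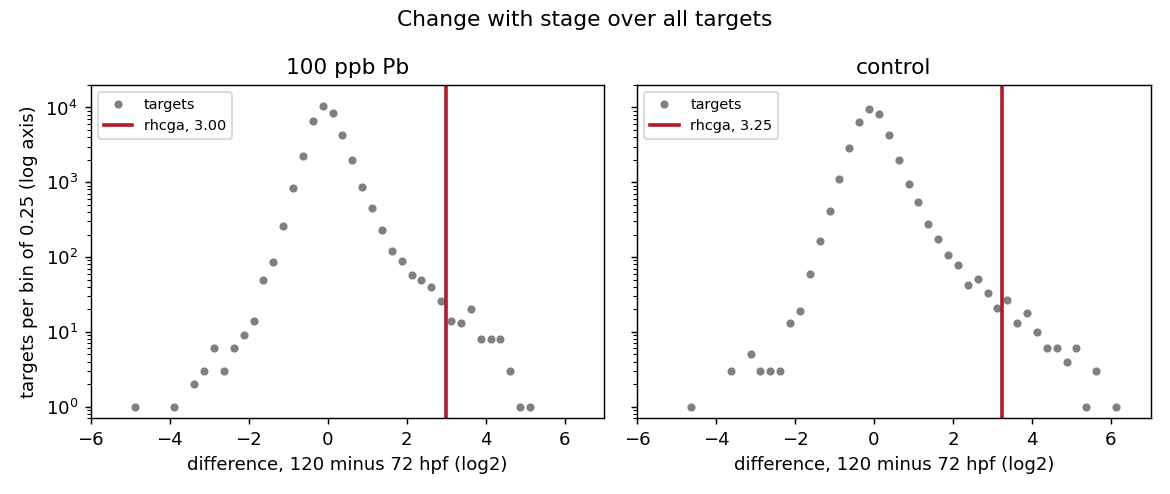
Number of targets (log axis) in bins of 0.25 by their log2 difference, 120 minus 72 hpf, in Pb-treated larvae (left) and control larvae (right), with a red line for *rhcga*. The line stands at 3.00 with Pb and at 3.25 in controls, near the right end of both distributions.

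The rise was read by every part of the transcript. Single probes differed by 2.34 to 3.52 on the log2 scale between 120 and 72 hpf with Pb (median 3.05) and by 2.47 to 3.69 in controls (median 3.38). The smallest difference came from the probe at 14 nt and the largest from the probe at 129 nt in both comparisons. For 12 of 12 probes the arrays of 120 hpf lay above those of 72 hpf without overlap, with Pb and in controls alike. These probes were hybridized with the same RNA and are not independent replicates. The probes differed widely in brightness. That at 509 nt had a mean log2 intensity of 14.09 in Pb larvae and 13.91 in control larvae of 120 hpf, against 11.23 and 10.53 at 72 hpf. That at 821 nt had 10.13 in Pb larvae and 10.05 in control larvae of 120 hpf, against 6.83 and 7.49 at 72 hpf. Over the 12 arrays, the correlation of a probe with the mean of the other 11 was lowest for the probe at 821 nt (r = 0.891) and highest for that at 364 nt (r = 0.996), a description only, since the arrays are shared.

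**Figure D3:**
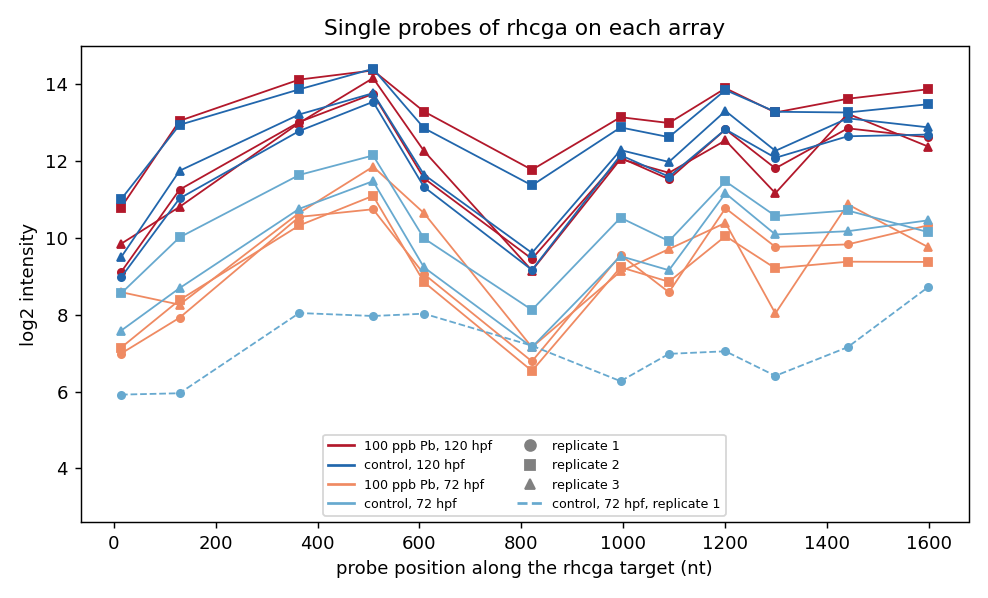
Log2 intensity of each of the 12 *rhcga* probes against its position along the transcript in nt, with 1 line for each array, colored by group, and a dashed line for replicate 1 of the control group at 72 hpf. All probes are higher at 120 hpf, and the dashed line lies below the other arrays of 72 hpf at 11 of 12 probes.

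One control array decides much of the spread at 72 hpf. Replicate 1 of the control group at 72 hpf read 7.14, whereas replicates 2 and 3 read 10.32 and 9.62, so it deviated by -2.83 on the log2 scale from their mean. It was the lowest of the 6 arrays of 72 hpf at 11 of 12 probes. Its deposited intensities for *rhcga* ran from 115 to 598, all below the median of that array (669.9), and 4 of the 12 probes lay below its first quartile. On each of the other 5 arrays of 72 hpf, 2 to 5 probes lay below the array median and at most 1 below the first quartile. The SD of 1.67 in this group ranked 7 of 37157 targets from the largest, where the median SD of all targets was 0.208. In the Pb group of 72 hpf the SD of *rhcga* was 0.279, beside a median of 0.382 over all targets, and 68.2% of the targets had a larger one. The SD of *rhcga* was also large at 120 hpf, where 6.02% of the targets had a larger one with Pb and 5.11% in controls.

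Without replicate 1 of the controls at 72 hpf, the difference between 120 and 72 hpf in controls was 2.31 on the log2 scale, or 4.94-fold (standard error 0.458). Leaving out replicate 2 of the same group raised it to 3.89, or 14.9-fold. With each of the other control arrays of both stages left out in turn it was between 2.89 and 3.55. With Pb, leaving out 1 array of the groups compared gave differences between 2.55 and 3.23, so the fold varied less there, between 5.86 and 9.39.

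The same control array also read low for other genes that rise between the stages. Among the 829 other targets that limma called higher at 120 hpf than at 72 hpf in Pb-treated larvae, a comparison chosen after the values were seen, its median deviation from the mean of the other 2 controls was -0.31 on the log2 scale, while that of replicates 2 and 3 was 0.21 and 0.08. Of the 20 named targets other than *rhcga* with the steepest rise with Pb, 16 were lowest on this array among the 3 controls of 72 hpf. The median deviation of the 20 was -0.69. The share over all targets is not given here for this array. *pnp4b*, a purine nucleoside phosphorylase, read 6.44 on it, against 8.77 and 9.47 on replicates 2 and 3. *amy2al2*, a pancreatic amylase, read 7.24, against 9.95 and 7.99. *slc14a2*, a urea transporter, read 6.25, against 6.52 and 6.76, a much smaller gap. Over all targets the array correlated with the other controls of its group at a mean r of 0.979, close to 0.983 and 0.984 for the other 2. The part of this shift among stage-rising targets in the low reading of *rhcga* was not tested. For Pb replicates 1, 2, and 3 of 72 hpf, the median deviation from the other arrays of their group was 0.18, 0.01, and -0.17. It was taken over the 1340 other targets called higher at 120 hpf in controls.

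At 120 hpf replicate 2 was the highest in both groups, at 13.18 with Pb and 12.99 in control, and at 12 of 12 probes one of these 2 arrays was the highest of all 12. At this stage the control and Pb arrays of one number also deviated together over all targets for all 3 numbers, which at 72 hpf held for numbers 1 and 2 only.

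With all arrays kept, the difference in *rhcga* between Pb and control was smaller than the spread between arrays at both stages, and the arrays overlapped. At 120 hpf the difference between Pb and control was 0.01 on the log2 scale (standard error 0.661, or 0.517 with the replicate as a block), a ratio of 1.01. The standard error of 0.661 is pooled over all 4 groups. It thus includes the low control array of 72 hpf, which is in neither group of 120 hpf. With only the 2 groups of 120 hpf fitted, the standard error was smaller than 0.661 and 0.517. In the 3 pairs of one replicate number it was 0.09, 0.20, and -0.25. Single probes lay between -0.46 and 0.42, 7 above 0 and 5 below. At 72 hpf the difference was 0.26, a ratio of 1.20 (standard error 0.661, or 0.692 with only these 2 groups fitted). The pairs stood at 2.10, -1.28, and -0.03. Here 9 probes lay above 0 and 3 below. Of all targets, 48.6% had a higher difference at 120 hpf and 15.8% at 72 hpf. The SE leaves room for a difference of either sign at both stages.

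The sign and the overlap at 72 hpf rested on the low control array. Without it the Pb arrays lay below the controls by 0.68 on the log2 scale (difference -0.68, standard error 0.458). The highest Pb array (9.59) was then just below the lower of the remaining controls (9.62), so the groups did not overlap. The share of all targets without overlap in that setting is not given here. Without replicate 2 of the controls the Pb arrays lay above by 0.91. At 120 hpf the difference ranged from -0.44 without replicate 2 of the Pb group to 0.36 without replicate 2 of the control group. The Pb difference at 120 hpf minus that at 72 hpf was -0.25 (standard error 0.935). Across all 37157 targets limma called 0 (0%) for Pb against control at 120 hpf and 0 (0%) at 72 hpf. At an unadjusted p under 0.05 limma had 112 targets at 120 hpf and 566 at 72 hpf. With no effect of Pb, a share of about 0.05 of all targets would pass that level. Every unadjusted count in this paragraph lies below that share. The reason for this was not tested. The methods' t-test had 499 targets under 0.05 at 120 hpf and 532 at 72 hpf, and 0 after Benjamini-Hochberg adjustment at both.

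*rhcga* was the one gene of the Rh family with a named target, out of 8 symbols listed, so its paralogs are not analysed here. Of 22 genes listed for the H+ pump rich ionocyte, 2 were measured. *ca15a*, a membrane-bound carbonic anhydrase that supplies protons on the outer face of these cells, read 9.99, 10.70, and 9.44 with Pb and 10.08, 10.57, and 10.26 in control at 120 hpf. At 72 hpf it read 9.93, 9.65, and 9.43 with Pb and 9.15, 9.43, and 10.00 in control. The stages overlapped with Pb and did not overlap in controls. Its difference between 120 and 72 hpf was 0.37 with Pb and 0.78 in controls, and limma called neither (adjusted p = 0.673 and adjusted p = 0.227). *foxi3a*, a forkhead factor that specifies ionocytes in the skin, differed by 0.49 with Pb and 0.66 in controls (limma, adjusted p = 0.306 and adjusted p = 0.11). Its arrays of 120 hpf lay between 9.81 and 10.11 and those of 72 hpf between 8.90 and 9.65, so the stages did not overlap. Over all targets, a lack of overlap in this direction held for 7.97% with Pb and 15.1% in controls. Like *rhcga*, *foxi3a* read lowest on replicate 1 of the controls at 72 hpf, at 8.90 against 9.34 and 9.65, and so did *ca15a*. Of the H+ pump subunits, *atp6v0e1* also read lowest there (11.15 against 11.18 and 11.23), whereas *atp6v0a1a* read highest (11.25 against 11.06 and 11.23). The share of all targets lowest on that array is not given here. Both subunits of the H+ pump that were measured, of 30 listed, moved little. *atp6v0a1a* differed by 0.11 with Pb and 0.08 in controls, and *atp6v0e1* by 0.03 and 0.13, and limma called neither in either comparison.

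Among 11 measured genes of other ionocytes and their hormones, of 48 listed, limma called 1 higher at 120 hpf with Pb and 2 in controls, and 0 lower. Over all targets 2.96% were called with Pb (2.23% higher and 0.729% lower) and 4.75% in controls (3.61% higher and 1.14% lower). *pth1b*, a parathyroid hormone that acts on calcium balance, read 8.55, 7.86, and 8.54 with Pb at 120 hpf, against 6.60, 6.62, and 7.09 at 72 hpf, 2.92-fold higher (limma, adjusted p = 0.0275). In controls it was 3.26-fold higher (adjusted p = 0.0121). Both calls of *pth1b* were lost with values as deposited (adjusted p = 0.352 with Pb and adjusted p = 0.218 in controls) and without any one of 4 arrays of the groups compared (adjusted p up to 0.121 and up to 0.0678). The call with Pb was also lost with median centering and with only the arrays of that comparison fitted. *stc1l*, a stanniocalcin-like gene whose relative stanniocalcin lowers calcium uptake, was 1.86-fold higher in controls (adjusted p = 0.0478), a call that was lost with values as deposited (adjusted p = 0.459), with median centering, and without any one of 10 of the 12 arrays, and differed by 0.59 with Pb (adjusted p = 0.242). *trpv6*, the calcium channel of another ionocyte, differed by 0.71 with Pb and 0.66 in controls (adjusted p = 0.174 and adjusted p = 0.179). The median difference of the 11 genes was 0.26 with Pb and 0.22 in controls, beside -0.05 and -0.04 over all targets. Of the 11, 8 lay above 0 and 3 below with Pb, and 7 above and 4 below in controls. *kcnj1b* differed by -0.25 with Pb and -0.24 in controls, *slc12a2* by -0.06 and -0.30, and *stc1* by 0.01 and -0.32. None of these was called.

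Of 59 genes listed for ammonia, glutamine, amino group, and urea metabolism, which include enzymes of amino acid breakdown, 11 were measured. limma called 4 of them, the urea transporter *slc14a2*, *ada*, *hpdb*, and *ampd1*, higher at 120 hpf with Pb and in controls, and 0 lower, beside 2.23% and 3.61% of all targets called higher. The share of these 11 was not tested. Their median difference was 0.48 with Pb and 0.52 in controls, and 10 of the 11 lay above 0 and 1 below in each comparison. *slc14a2*, which moves urea across membranes, read 9.62, 9.95, and 8.47 with Pb at 120 hpf, against 6.80, 6.52, and 7.03 at 72 hpf. In controls it read 8.79, 9.10, and 9.03 at 120 hpf, against 6.25, 6.52, and 6.76 at 72 hpf. All arrays of 120 hpf lay above those of 72 hpf, as was the case for 7.97% of all targets with Pb and 15.1% in controls. *slc14a2* was 5.90-fold higher with Pb (log2 difference 2.56, standard error 0.322) and 5.52-fold higher in controls (2.46, standard error 0.322; limma, adjusted p = 0.000681 with Pb and adjusted p = 0.000671 in controls).

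*ada*, adenosine deaminase, which releases ammonia from adenosine, read 10.91, 10.33, and 10.16 with Pb at 120 hpf, against 8.39, 8.84, and 8.45 at 72 hpf. In controls it read 10.78, 10.55, and 10.70 at 120 hpf, against 8.37, 8.73, and 8.62 at 72 hpf. It was 3.74-fold higher with Pb and 4.30-fold higher in controls (limma, adjusted p = 0.000457 and adjusted p = 0.000142). *hpdb*, a dioxygenase of tyrosine breakdown, was 3.52-fold higher with Pb and 4.59-fold higher in controls (adjusted p = 0.00463 and adjusted p = 0.000844). The call of *hpdb* with Pb was lost with values kept as deposited (adjusted p = 0.132). *ampd1*, the AMP deaminase of muscle, which also frees ammonia, was 2.13-fold higher with Pb and 2.30-fold higher in controls (adjusted p = 0.0246 and adjusted p = 0.0105). Both calls of *ampd1* were lost with values as deposited (adjusted p = 0.506 with Pb and adjusted p = 0.347 in controls), with median polish, with only the probes in the last 500 nt, and without any one of 4 arrays with Pb and 2 in controls. The call with Pb was also lost with median centering and with only the arrays of that comparison fitted. The other 7 genes were not called in either comparison. Among them *hal*, histidine ammonia-lyase, differed by 0.96 with Pb and 1.08 in controls (adjusted p = 0.157 and adjusted p = 0.0857), and *ass1*, an enzyme of urea synthesis, by 0.40 and 0.52. *glulc*, a glutamine synthetase, which binds ammonia into glutamine, differed by 0.48 and 0.49. *urad* differed by -0.30 with Pb and 0.10 in controls, and *slc38a3a* by 0.18 and -0.12.

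**Figure D4:**
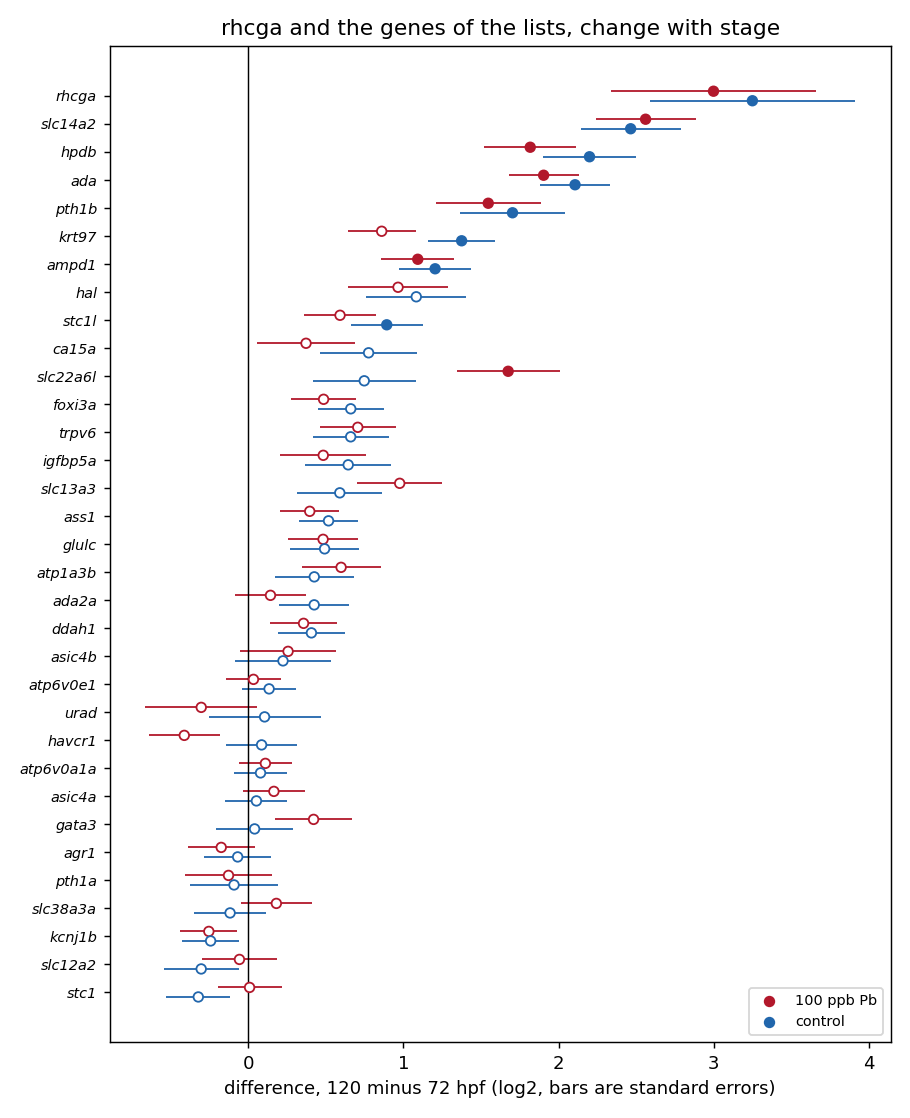
Log2 difference between 120 and 72 hpf for *rhcga* and the measured genes of the lists for ionocytes, the H+ pump, nitrogen metabolism, epidermis, and kidney tubule, in Pb-treated (red) and control larvae (blue), with bars for the standard error. Filled points are called by limma (*rhcga* is filled without a test). *rhcga* and *slc14a2* stand at the top and the subunits of the H+ pump near 0.

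For the tissues that could carry *rhcga*, few markers were measured, and over all targets 2.23% were called higher with Pb and 3.61% in controls. Of 29 epidermal genes 2 had a named target. The keratin *krt97* was 1.81-fold higher at 120 hpf with Pb (adjusted p = 0.056) and 2.59-fold higher in controls (limma, adjusted p = 0.00275), and *agr1*, a gene of mucous skin cells, differed by -0.17 and -0.07 and was not called. The control call of *krt97* was lost with values kept as deposited and when only its probes in the last 500 nt were averaged. Of 16 kidney tubule genes 4 were measured. *slc22a6l*, an organic anion transporter, was 3.19-fold higher with Pb (limma, adjusted p = 0.0161), and differed by 0.75 in controls (adjusted p = 0.279). Its call with Pb was lost without replicate 3 of the Pb group at 72 hpf (adjusted p = 0.0665), with values as deposited, and with only the arrays of that comparison fitted. The other 3 were not called. Of 45 markers of muscle, lens, liver, blood, and other tissues of a whole larva, 7 were measured. None of the listed liver, pancreas, gut, or nervous system genes was among them. In controls of 120 hpf, mean log2 intensities were 12.23 to 15.08 for *acta1b*, *crybb1*, *mipa*, and *hbae3*. They were 8.54 for *crygm2a*, 8.62 for *crygm2b*, and 8.09 for *myl7*. The embryonic globin *hbae3* was the one called of these 7, beside 0.729% of all targets called lower with Pb and 1.14% in controls, lower at 120 hpf by 0.99 with Pb and 1.01 in controls (values -0.99 and -1.01, limma, adjusted p = 0.0361 and adjusted p = 0.0253). Both calls of *hbae3* were lost with values as deposited (adjusted p = 0.424 with Pb and adjusted p = 0.33 in controls), with median centering (adjusted p = 0.458 and adjusted p = 0.377), and without any one of 8 arrays with Pb and 5 in controls. No gene of any list was called for Pb against control at 120 hpf or at 72 hpf.

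Over the 12 arrays, the named gene with the profile most like that of *rhcga* was *arid6*, which encodes an AT-rich interaction domain protein (Pearson r = 0.971). It was followed by *stoml3a*, a stomatin-like membrane protein (r = 0.962), *mylipb*, a ubiquitin ligase (r = 0.961), *bco1l*, a carotenoid oxygenase-like gene (r = 0.957), and *pnp4b* (r = 0.956). *crhbp*, which binds corticotropin-releasing hormone (r = 0.955), *folr*, a folate receptor (r = 0.954), and *aqp8a.2*, an aquaporin (r = 0.943), completed the first 8. All 8 were high at 120 hpf and low at 72 hpf, and of 2662 named targets compared 50 had an r of at least 0.9. The 12 points share their stage and their arrays, so these values are a description. The size of the rise differed widely. *pnp4b* rose more steeply than *rhcga*, by 4.31 with Pb and 4.72 in controls, and *crhbp* less, by 0.69 and 0.85. All 8 read lower on replicate 1 of the controls at 72 hpf than the mean of the other 2, with deviations of -0.62 to -2.69 on the log2 scale. The 8 were chosen by r over these same arrays. Their shared stage pattern and low reading on that array thus follow in part from the choice. Without that array r ranged from 0.908 for *aqp8a.2* to 0.975 for *bco1l*, and 5 of the 8 stayed among the first 8.

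**Figure D5:**
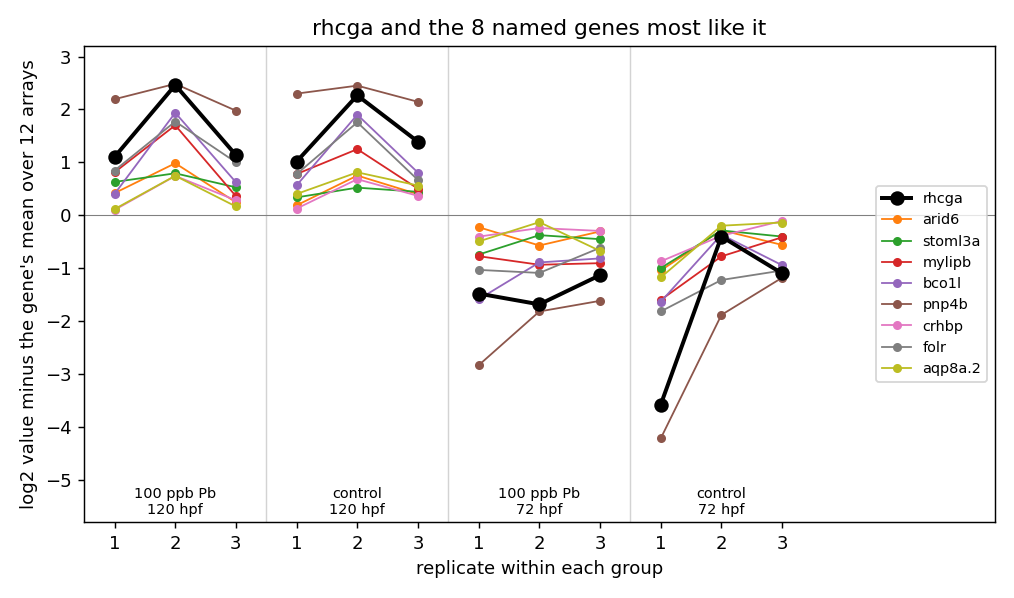
Log2 value minus the mean of each gene over the 12 arrays, for *rhcga* (black) and the 8 named genes most like it, with the 3 replicates of each group side by side. All 9 genes are above 0 at 120 hpf and below 0 at 72 hpf, and all 9 have their lowest value on replicate 1 of the control group at 72 hpf. The 8 genes were chosen by r over these same arrays, so this follows in part from the choice.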

How the data were processed

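RNA of 12 pools was measured on 1-color oligonucleotide arrays (NimbleGen, 385000 60-mer probes). For every probe the authors deposited a linear intensity on each array. Per their methods they extracted images with NimbleScan, quantile normalized the values, and made gene calls by RMA (also named in the submitters' processing notes, version not given in the sources used here). The deposited values are those of single probes, not those calls. Sorted log2 values differed by at most 0.00902 on average between the control and Pb array of one number and by 0.0838 to 0.966 between other arrays. The deposited normalization thus held within pairs, and comparisons of 120 with 72 hpf cross pairs. Median intensities ran from 376 to 669.9.

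After log2 transformation, the intensities of all 12 arrays were quantile normalized together and averaged per target (R 4.3.3, limma 3.58.1). No background was subtracted. The linear model (lmFit, eBayes) held a mean for each of the 4 groups and no replicate block. P values were adjusted by Benjamini-Hochberg over 37157 targets (threshold 0.05), and the fit was tested on simulated data. Platform annotation named 2626 targets and RefSeq transcripts 37 more. *hpdb* and *slc22a6l* were matched through synonyms. The gene and the lists were chosen with earlier results of these data known. Genes described are *rhcga*, list members called between stages, the 8 named genes with the highest Pearson r, and the 5 with the highest r of deviations from the group means (1 of them is not reported here), and further list members were chosen after their values were seen. At 120 hpf, deviations from the group means correlated between arrays of one number (r = 0.548, 0.434, and 0.268), a hint of pairing from the data, not the labels. The reported fit leaves it out and the block is an alternative. At 72 hpf they did not for number 3 (r = -0.069). Alternatives were the values as deposited, median centering, normexp background correction (offset 50), median polish, only the probes in the last 500 nt before a target's final probe, the lowest 25% of targets left out, a replicate block, only the 2 groups compared, the methods' t-test, and each array left out. The number of arrays limits the precision. No sequence of the probes or the protein was used here.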

Additional observations from a re-analysis of the deposited data

How the results depend on the processing

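Each difference of *rhcga* between 2 groups moved by less than the pooled SD of those groups under every alternative. For several settings this was fixed in advance. With 3 arrays per group, leaving out 1 array cannot move a difference by as much as that SD. The replicate block and the fit of only 2 groups cannot move it at all. For Pb against control at 72 hpf that SD was 1.20 and includes the low control array. Without that array this difference went from 0.26 to -0.68, a change of sign. Over the settings that keep all arrays the differences lay at 2.81 to 3.08 between stages with Pb and 3.05 to 3.46 in controls. For Pb against control they lay at -0.13 to 0.01 at 120 hpf (below 0 when only probes in the last 500 nt were averaged) and 0.22 to 0.35 at 72 hpf. Leaving out each array gave 2.55 to 3.23, 2.31 to 3.89, -0.44 to 0.36, and -0.68 to 0.91, and -0.90 to 0.69 for the difference of both Pb differences. With a replicate block the log2 differences were the same, the standard error between stages was 0.522, and limma called 1204 targets between stages with Pb and 1963 in controls, against 1101 and 1765 without it. It changed no call for Pb against control. For 120 against 72 hpf the numbers share only a number (r from -0.455 to 0.551).

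Counts of called targets depended more on the setting. Between stages with Pb they were 366 with values as deposited, 364 with only the 2 groups compared, and 24 by the methods' t-test after adjustment. In controls they were 499, 3542, and 596 under the same settings, and 1082 with median centering. Leaving out each array gave 580 (without Pb replicate 1 at 120 hpf) to 1363 with Pb, and 747 to 2302 in controls. The control counts were 884 and 770 without control replicates 1 and 3 at 120 hpf, and 747, 921, and 969 without control replicates 1, 2, and 3 at 72 hpf. The study's thresholds for the methods' t-test took 3481 and 5811 targets between stages, and 81 and 244 for Pb against control at 120 and 72 hpf. The causes were not tested. Of 15 calls of list genes, 5 were kept under all 20 alternatives fitted with limma: both of *slc14a2*, both of *ada*, and that of *hpdb* in controls. The methods' t-test was not among those 20, so whether these calls hold under it is not given here. No call turned its sign. The first 8 genes by likeness shared 3 with those by Spearman rho, 4 with values as deposited, 1 with the first 8 of all targets, named or not, and 5 without replicate 1 of the controls at 72 hpf, which was added once the values were known.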

Other observations

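With the group means removed, the named gene whose deviations were most like those of *rhcga* over the 12 arrays was *babam1*, a subunit of a DNA repair complex (r = 0.956). *foxj1b*, a factor of motile cilia, had r = 0.913, *arid6* r = 0.902, and *ptp4a3a*, a phosphatase, r = 0.889. The stage difference of *babam1* was small, at -0.19 on the log2 scale with Pb and -0.09 in controls, so its profile over all 12 arrays had r = -0.10 with *rhcga*. On replicate 1 of the controls at 72 hpf these 4 genes deviated by -0.37 to -0.75 from the mean of the other 2 controls, which follows in part from their choice over the same arrays. The r of the whole profile without that array was -0.67 for *babam1* (-0.10 with it), 0.40 for *foxj1b* (0.68 with it), 0.96 for *arid6* (0.97 with it), and 0.33 for *ptp4a3a* (0.54 with it). The r of the deviations without that array is not given here, so how far those r values rest on it was not tested.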
